A study of Mus musculus with 15 samples.

Results

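The genes described here are 9 core pluripotency genes, Pou5f1, Sox2, Nanog, Sall4, Zfp42, Dppa2, Dppa4, Dppa5a and Utf1, chosen by symbol. All 9 were found among the 22035 genes of the table that holds RNA and H3K27me3, where they take 12 of 28373 transcripts. All 9 were also among the 25727 genes of the H3K4me3 start-site table, where they take 27 of 74866 windows of 1 kb. Of 98085 random bins of 2 kb, 15 lay within 20 kb of one of the genes, and 1 of these served both Dppa2 and Dppa4. The cells were TT2, a wildtype male mouse embryonic stem cell line of C57BL/6 x CBA strain, from the inner cell mass of the blastocyst, sorted straight into a nuclear isolation buffer. Every one of the 15 libraries came from this line, with no treated or mutant cells, so the groups differ by antibody and by cell number. H3K9me3 was profiled in 1000 cells (3 libraries, a, b and c), 10000, 100000 and 1000000 cells, and was set against total histone H3 (panH3) in 1000 cells (2 libraries, a and b). H3K27me3 was profiled in 1000, 10000 and 100000 cells, H3K4me3 in 5000, 10000 and 100000 cells, and total RNA depleted of ribosomal RNA in 1000 cells, with 1 library each. Nothing in the labels tells apart repeat libraries of 1 culture from separate cultures, and the p-values therefore reflect only how much these libraries vary, which may be technical.

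Pluripotency, the ability of a cell to form every tissue of the body, is held in embryonic stem cells by transcription factors that keep one another's genes active. Pou5f1 (Oct4), a POU domain factor, and Sox2, an HMG box factor, bind neighbouring DNA sites as a pair, and Nanog, a homeodomain factor, acts on many of the same genes. H3K4me3 marks active promoters. H3K27me3 is laid down by Polycomb repressive complexes, often over promoters of developmental genes that also carry H3K4me3 (bivalent promoters), and H3K9me3 is a mark of heterochromatin.

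The promoters of these genes differ in their content of CG dinucleotides, and the stretches of 4 of them are shown because they span that range. Of the 9 genes, 5 had an entry in the RefSeq promoter table (GRCm38.p6): Sox2, Nanog, Utf1, Zfp42 and Pou5f1. The 250 bases before the annotated start are given 5′ to 3′ on the strand of the gene, with CG in capitals, for Sox2 (chr3:34649745-34649994, plus strand), Utf1 (chr7:139943606-139943855, plus strand), the first entry of Pou5f1 (chr17:35505782-35506031, plus strand) and the first entry of Nanog (chr6:122707239-122707488, plus strand).
Sox2: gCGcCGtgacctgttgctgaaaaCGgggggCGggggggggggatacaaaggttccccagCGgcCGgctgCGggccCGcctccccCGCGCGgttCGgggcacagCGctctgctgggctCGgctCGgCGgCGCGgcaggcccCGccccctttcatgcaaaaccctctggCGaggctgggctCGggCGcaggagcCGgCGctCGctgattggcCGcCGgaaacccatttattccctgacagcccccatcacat
Utf1: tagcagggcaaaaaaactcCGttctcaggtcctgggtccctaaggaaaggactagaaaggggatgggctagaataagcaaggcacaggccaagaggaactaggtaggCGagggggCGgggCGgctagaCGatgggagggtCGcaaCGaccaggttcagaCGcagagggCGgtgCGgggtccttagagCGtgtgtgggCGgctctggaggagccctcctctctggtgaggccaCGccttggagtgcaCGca
Pou5f1: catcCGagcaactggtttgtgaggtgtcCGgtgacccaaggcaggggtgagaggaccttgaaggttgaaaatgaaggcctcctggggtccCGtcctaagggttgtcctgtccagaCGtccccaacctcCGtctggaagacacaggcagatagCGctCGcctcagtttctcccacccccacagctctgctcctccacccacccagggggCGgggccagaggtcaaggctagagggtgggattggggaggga
Nanog: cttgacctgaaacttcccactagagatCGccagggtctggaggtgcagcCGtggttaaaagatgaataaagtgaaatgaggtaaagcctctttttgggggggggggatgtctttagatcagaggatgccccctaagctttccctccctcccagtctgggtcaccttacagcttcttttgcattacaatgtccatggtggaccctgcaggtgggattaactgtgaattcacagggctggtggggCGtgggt
The stretch before Sox2 held 27 CG, more than or as many as 92.4% of the 32851 promoter entries, and that before Utf1 held 14. The stretch before Zfp42 held 9, the 2 entries of Pou5f1 held 8 and 6, and the 2 entries of Nanog held 3 and 2, against a median of 6 over all entries.

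The same 250 bases were searched on both strands for the octamer-type letters TTTGCAT, for the Sox-type letters ACAATG and ACAAAG, for the GC box GGGCGG and for the TATA letters TATAAA. Nanog was the only gene in the table, with 2 of 32851 entries (0.00609%), in which TTTGCAT and ACAATG stood 1 base apart in this order. Both entries hold the same stretch, and the joined form was searched for with ACAATG only, not with ACAAAG. The stretch lies at -75 from the first annotated start of Nanog and at -151 from the second, and is shown with both motifs in capitals.
Nanog: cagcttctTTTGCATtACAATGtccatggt
TTTGCAT was also found before Zfp42, at -185, and on the other strand before Sox2, at -99, while Sox2 held ACAAAG at -206. The second entry of Pou5f1 held ACAATG at -158. Over all entries TTTGCAT was found in 4.12%, ACAATG in 10.7%, ACAAAG in 16.5%, GGGCGG in 32.7% and TATAAA in 12.4%. GC boxes lay before Sox2, Utf1, Zfp42 and the first start of Pou5f1, and TATAAA before none of the 5 genes. These matches describe letters in a window and not binding.

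Depth, recovered from the steps of the deposited RPKM (reads scaled to window length and library depth), was 13.4 to 45.5 M reads for H3K9me3 (M for 1000000), 13 to 19.7 M for H3K27me3 and 42 and 42.1 M for panH3. For H3K4me3 it was 1.86 M reads at 5000 cells, 1.07 M at 10000 and 16.6 M at 100000 cells, and a single read over 1 kb stood for 0.539, 0.938 and 0.0602 RPKM. Other markers of embryonic stem cells were present in the RNA, with Esrrb at 73.80, Tdgf1 at 80.43, Fgf4 at 21.06, Tfcp2l1 (listed as Tcfcp2l1) at 20.30 and Klf4 at 15.01 RPKM. Of 17 fibroblast and feeder cell markers, 3 reached 1 RPKM (Fn1 38.45, Vim 13.47 and Thy1 1.79), and 6 were listed at 0 (Col3a1, S100a4, Dcn, Postn, Lum and Prrx1). The rest, Col1a1 and Col1a2 among them, lay above 0 and below 1 RPKM. The list summed to 55.5 RPKM, and its part in any result was not tested. In a bulk sample, fewer cells that express a gene and less RNA per cell cannot be told apart.

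All 9 genes were expressed, and 8 of them strongly. Every one was at or above 1 RPKM, a level reached by 50.2% of all genes, and 8 were at or above 10 RPKM, a level reached by 18.0%. Their median was 76.0 RPKM, against 1.02 RPKM over all genes. With a single library there is no replicate error for these values.

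Pou5f1, on chromosome 17 from 35642984 to 35647720 (mm9), had 81.38 RPKM and ranked 153 of 22035 genes. Sox2, an intronless gene on chromosome 3 from 34548928 to 34551384, had 75.98 RPKM and ranked 168. Nanog, on chromosome 6 from 122657584 to 122663792, had 53.60 RPKM and ranked 344. Pou5f1 and Sox2 thus stood close together, with Nanog below both.

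Of the zinc finger genes, Zfp42 was the highest of the set. Zfp42 (Rex1), a widely used marker of the naive state, on chromosome 8 from 44380420 to 44392364, reached 221.81 RPKM and ranked 29. Sall4, a zinc finger factor that recruits the NuRD repressor complex, on chromosome 2 from 168573824 to 168592704, had 97.27 RPKM and ranked 114. Its 3 transcript rows ran from 51.88 to 97.27 RPKM, and at the lowest row it would stand below Dppa5a, Pou5f1, Sox2, Utf1 and Nanog. Where rows of 1 gene at 1 position differed in exon length, RPKM times length agreed within 1% in 1411 of 1426 genes, so such rows carry the same reads over different lengths and are no measure of isoforms.

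The developmental pluripotency associated genes spread widely. Dppa5a (Esg1), an RNA-binding protein, on chromosome 9 from 78214864 to 78216008, had 95.11 RPKM and ranked 119. Dppa2 and Dppa4, which act as a pair of DNA-binding proteins and lie next to each other on chromosome 16, did not stand together. Dppa4, from 48283848 to 48294404, had 31.58 RPKM, while Dppa2, from 48310384 to 48319624, had 9.65 RPKM and ranked 4081, the lowest of the 9. Utf1, a chromatin-associated protein found at bivalent promoters, on chromosome 7 from 147129760 to 147131008, had 55.06 RPKM and ranked 330. Pou5f1, Nanog and Dppa5a are known to have processed pseudogenes in the mouse, and how reads shared with such copies were counted is not given in the sources used here, so their levels are uncertain to that extent.

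**Figure D1:**
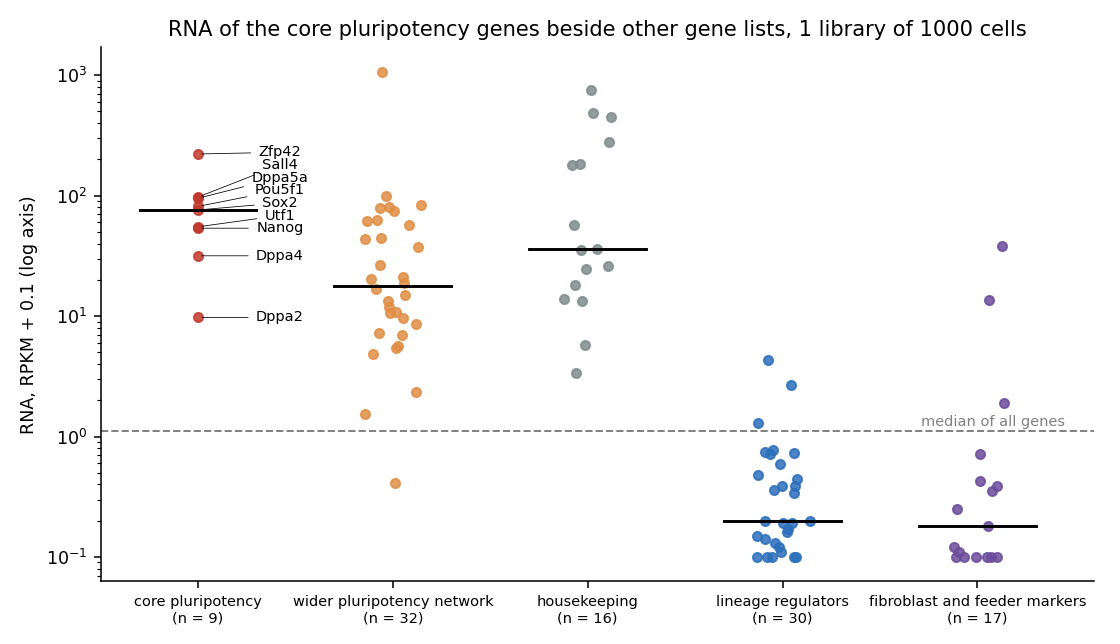
RNA (RPKM + 0.1, log axis) of each gene in 5 lists, 1 point per gene, in the single RNA library of 1000 cells, with list medians as black bars and the median of all genes as a dashed line. The 9 core genes lie between 9.65 and 221.81 RPKM, while the lineage regulators and the fibroblast markers lie mostly below the median of all genes.

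H3K4me3 was present at the start of 8 of the 9 genes and low at Dppa2. Each gene is described by the 1 kb window with its highest mean, given at 5000, 10000 and 100000 cells in turn. Intervals are exact Poisson 95% intervals on the reads, which cover counting error only, since reads from PCR are not independent molecules. Pou5f1 had 8.62, 20.63 and 5.36 RPKM, from 16, 22 and 89 reads. Sox2 had 17.77, 42.19 and 7.59 RPKM, from 33, 45 and 126 reads. Nanog had 15.62, 41.25 and 5.24 RPKM, from 29, 44 and 87 reads. All 3 factors were highest in the library of 10000 cells, and so was the median of all genes with RNA values, at 3.77, 7.5 and 2.11 RPKM in the same order.

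Sall4 had 19.93, 51.56 and 7.41 RPKM, and Zfp42, whose RNA was the highest, had 16.16, 28.13 and 3.67 RPKM. Utf1 had 18.85, 41.25 and 8.55 RPKM, the highest of the 9 at 100000 cells. Dppa4 had 9.16, 15 and 3.49 RPKM and Dppa5a 10.23, 28.13 and 2.47 RPKM. The order of the genes by H3K4me3 was thus not their order by RNA, and across the 9 genes the 2 measures had a Spearman correlation of 0.25 at 100000 cells, a description over 9 points from different libraries.

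At 100000 cells, the deepest library, the order ran from Utf1 (8.55 RPKM, interval 7.2 to 10.1) through Sox2 (7.59), Sall4 (7.41), Pou5f1 (5.36), Nanog (5.24), Zfp42 (3.67) and Dppa4 (3.49) to Dppa5a (2.47, interval 1.77 to 3.35) and Dppa2 (0.72, interval 0.373 to 1.26). Neighbours in this order had overlapping intervals down to Dppa5a, and only Dppa2 stood clear of its neighbour. The order in the 3 libraries was alike, with Spearman correlations over the 9 genes of 0.916 between 5000 and 10000 cells, 0.75 between 5000 and 100000, and 0.756 between 10000 and 100000.

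Dppa2 had 1.08, 1.88 and 0.72 RPKM, from 2, 2 and 12 reads. Among the 3922 genes with RNA at least as high as that of Dppa2, 3.03%, 3.06% and 2.47% had H3K4me3 no higher at 5000, 10000 and 100000 cells, and their medians were 17.2, 37.5 and 6.2 RPKM. Dppa2 has a single window in the table, centred 206 bp inside the start in the gene table. Its partner Dppa4 had 17, 16 and 58 reads in the window on its start.

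Windows deep inside Pou5f1 and Sall4 had less H3K4me3 than those over the start. In Sall4 the window at 1958 bp was above those at 3 and 87 bp at 5000 and 100000 cells. At 10000 cells it was below both, so the order of these windows is not resolved. The Sall4 window at -739 bp was low in every library. In Pou5f1 H3K4me3 was 5.36 RPKM at the start at 100000 cells, 4.94 RPKM in a window centred 1443 bp inside the gene, 1.32 RPKM in 4 overlapping windows centred 2766 to 2782 bp inside, and 1.14 RPKM at 3346 bp. In Sall4 it was 0.72 RPKM at -739 bp, 5 RPKM at 3 bp, 5.72 RPKM at 87 bp, 7.41 RPKM at 175 bp, 6.32 RPKM at 1958 bp and 0.90 RPKM at 11261 bp. In Sox2 it was 5.78 RPKM at -1 bp, 6.87 RPKM at 49 bp and 7.59 RPKM at 130 bp. Windows that overlap share reads and are not separate measurements. The Pou5f1 windows at the start and at 1443 bp do not overlap, and the Sall4 windows at 1958 and 11261 bp overlap no other.

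Set against 100000 cells on the scale of log2(RPKM + 0.1), H3K4me3 at 5000 cells was at least 2-fold higher at 7 of the 9 genes, where 41.5% of all genes were, and at least 2-fold lower at 0, where 18.1% of all genes were. The differences ran from 0.53 log2 units at Dppa2 and 0.68 at Pou5f1 to 2.11 at Zfp42. The median of all genes was also higher at 5000 than at 100000 cells, as given above. That of genes with RNA of at least 10 RPKM was 17.2 RPKM at 5000 and 6.2 RPKM at 100000 cells. The direction at the core genes was thus shared with well expressed genes. No value can be tested with 1 library per cell number.

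H3K27me3 was low at these genes, as at other well expressed genes, with medians below those of lineage regulators. None of the 9 reached 1 RPKM within 1 kb of the start at 1000, 10000 or 100000 cells, where 5.25%, 11% and 9.55% of all genes did, and 0.757%, 1.64% and 1.34% of genes with RNA of at least 10 RPKM, so a count of 0 of 9 is near the background. Their medians at 1000, 10000 and 100000 cells were 0.18, 0.23 and 0.09 RPKM, those of all genes were 0.31, 0.28 and 0.28 RPKM, and those of 30 lineage regulators were 1.02, 2.23 and 2.04 RPKM. Those of genes with RNA of at least 10 RPKM were 0.2, 0.12 and 0.14 RPKM. The core medians were below these at 1000 and 100000 cells and above at 10000. At 10000 and 100000 cells Sox2 and Utf1 had the most of the mark, whereas at 1000 cells Nanog (0.28 RPKM) stood beside Sox2 (0.27 RPKM). H3K27me3 in this table was not given in whole multiples of 1 read, so read numbers are approximate and taken from the depth of the bins.

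Sox2 had 0.27, 0.68 and 0.71 RPKM at 1000, 10000 and 100000 cells, from about 7, 21 and 28 reads. At 100000 cells this was higher than or equal to 83.9% of all genes. Among the 3965 genes with RNA of at least 10 RPKM, 2.65% were as high as Sox2 at 100000 cells and 3.46% at 10000, but 32.3% at 1000. Utf1 had 0.39, 0.57 and 0.52 RPKM, from about 10, 17 and 20 reads, and 13%, 4.56% and 4.99% of those genes were as high at 1000, 10000 and 100000 cells. Both genes carried H3K4me3 at the same starts. They were the 2 highest of the 9 at 100000 cells, where the intervals of Sox2 (7.59 RPKM) and Sall4 (7.41 RPKM) overlapped. At 5000 and 10000 cells Sall4 was the highest.

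Nanog had 0.28, 0.30 and 0.20 RPKM, and Pou5f1 0.14, 0.04 and 0.09 RPKM, in the same order of cell number. Sall4 had 0.17, 0.23 and 0.15 RPKM and Zfp42 0.18, 0.24 and 0.05 RPKM. The 3 Dppa genes were the lowest at 100000 cells, with 0.18, 0.06 and 0.02 RPKM at Dppa2, 0.16, 0.00 and 0.04 RPKM at Dppa4, and 0.15, 0.02 and 0.02 RPKM at Dppa5a. Each of these 7 genes rests on about 1 to 9 reads a library (Dppa4 on none at 10000 cells), so their order among themselves is not resolved.

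**Figure D2:**
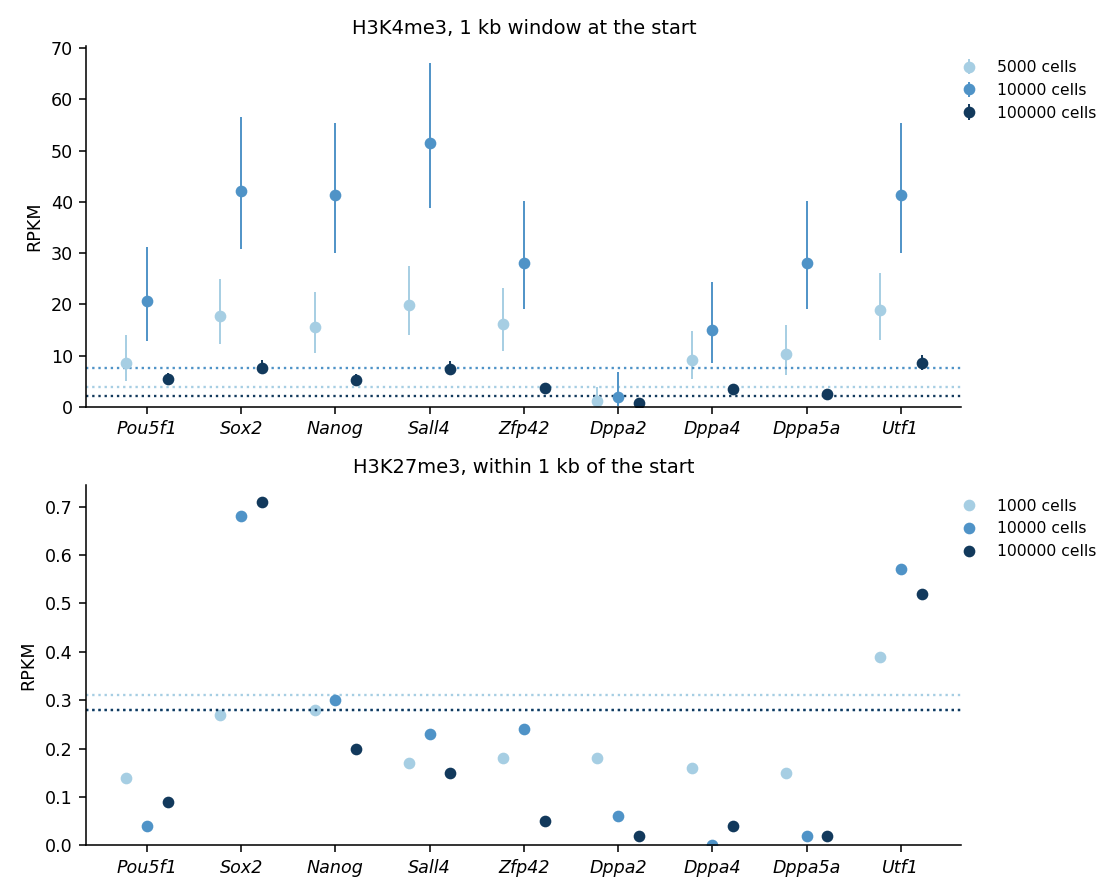
H3K4me3 (top) and H3K27me3 (bottom) in RPKM at the start of each of the 9 genes, 1 point per library, shaded from few to many cells. Bars in the top panel are exact Poisson 95% intervals, and dotted lines are the medians of all genes in each library. Dppa2 stands out as low in H3K4me3, and Sox2 and Utf1 as the highest in H3K27me3 at 10000 and 100000 cells.

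On the scale of log2(RPKM + 0.1), the difference in H3K27me3 at 1000 cells over 100000 cells was -1.13 at Sox2 and -0.34 at Utf1, and 0.11 to 1.22 at the other 7. It was at least 2-fold higher at 2 genes, Dppa2 and Dppa5a, where 6.13% of all genes were, and at least 2-fold lower at 1, Sox2, where 4.05% were. The value at 100000 cells enters both this difference and the order of the genes by level, so the signs are no independent split of the genes. H3K27me3 was higher at 1000 cells at 7 of the 9 core genes and 3 of 30 lineage regulators, at 64.3% of genes with RNA of at least 10 RPKM and at 49.9% of all genes. With a pseudocount of 1 RPKM none of the 9 passed 2-fold, and 0% of all genes were higher and 0.0363% lower, so that setting says nothing about the core genes.

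Random bins around Sox2 went the same way as its start, but they come from the same 3 H3K27me3 libraries and are no independent support. H3K27me3 was also lower at 1000 than at 100000 cells at 27 of 30 lineage regulators, so the direction was not particular to Sox2. All 3 random bins near Sox2 lay in Sox2ot, the long noncoding gene that overlaps it, whose RNA was 67.53 RPKM, an uncertain value since overlapping genes can share reads. The bin 16072 bp downstream of the start had 0.81, 1.76 and 1.47 RPKM of H3K27me3 at 1000, 10000 and 100000 cells, from 21, 54 and 58 reads, with intervals of 0.499 to 1.23, 1.33 to 2.3 and 1.12 to 1.91. The bin 22072 bp downstream had 0.35, 1.18 and 0.76 RPKM, and that 17928 bp upstream had 0.54, 0.72 and 1.07 RPKM. In each of the 3 bins the library of 1000 cells was the lowest, though its counting interval overlapped that of 100000 cells in all 3. The bin 17240 bp downstream of Utf1 held 1.04, 1.08 and 1.12 RPKM, with no such difference.

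Bins near the other 7 genes had little H3K27me3 at the larger cell numbers. Their 11 bins ran from 0.05 to 0.20 RPKM at 100000 cells and from 0.03 to 0.33 RPKM at 10000, and from 0.04 to 0.58 RPKM at 1000. The bin inside Pou5f1, for example, had 0.38, 0.03 and 0.15 RPKM, from 10, 1 and 6 reads. Over all bins the medians were 0.38, 0.36 and 0.36 RPKM.

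**Figure D3:**
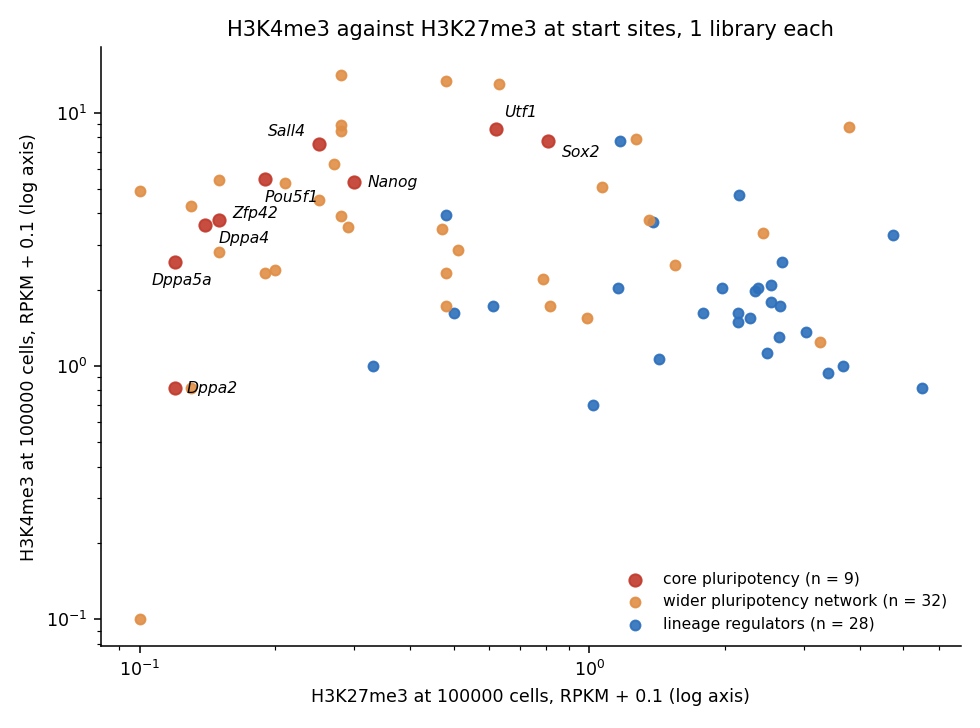
H3K4me3 against H3K27me3 at the start of each gene (both RPKM + 0.1, log axes) at 100000 cells, 1 library each, for the 9 core genes (labelled), the wider pluripotency network and the lineage regulators with a window. Most core genes lie to the left of the lineage regulators, with Sox2 (0.71 RPKM) and Utf1 (0.52 RPKM) furthest right among them, and Dppa2 lies lowest.

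Some other genes of the pluripotency network carried more H3K27me3 than the core genes. Of 32 such genes, 31 had RNA of at least 1 RPKM, with a median of 17.7 RPKM. The highest were Jarid2, a Polycomb partner, at 1071.20 RPKM, L1td1, an RNA-binding protein, at 99.80, Spp1 at 84.18 and Tdgf1, a Nodal co-receptor, at 80.43, and the lowest was Rex2 at 0.31. The value of Jarid2 exceeded those of the housekeeping genes Eef1a1 (748.94 RPKM) and Actb (453.67 RPKM). Whether all its reads come from its messenger RNA was not tested, so its level is uncertain. At 100000 cells, 6 of the 32 had H3K27me3 of at least 1 RPKM, against 0 of the 9 core genes and 9.55% of all genes. Esrrb, an orphan nuclear receptor of the naive network, had 3.68 RPKM, and Gbx2 had 3.16, Foxd3 2.33 and Lefty1 1.45 RPKM. The RNA of Esrrb was 73.80 RPKM, but the row for each measure was chosen separately, so both values need not belong to 1 start. The lowest, L1td1 and Rex2, were listed at 0.00 RPKM.

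Regulators of differentiated lineages, also a list chosen with earlier results of these data known, had little RNA and more H3K27me3. Of 30, 3 had RNA of at least 1 RPKM, and the highest were Tcfap2c at 4.26, Olig2 at 2.57, Otx2 at 1.19 and Sox1 at 0.68 RPKM, while 5 were listed at 0. H3K27me3 was at least 1 RPKM at 25 of the 30 at 100000 cells, and the highest were Sox17, an endoderm factor, at 5.40, Lhx1 at 4.64, Hoxb1 at 3.57 and Foxa2 at 3.29 RPKM. The lowest was Tbx6 at 0.23 RPKM, still above 7 of the 9 core genes. The median H3K4me3 of the 28 with a window was 1.57 RPKM at 100000 cells, against 5.24 RPKM at the core genes.

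Comparison of H3K9me3 with panH3 in 1000 cells set the mark beside nucleosome density. It was lower around most of the core genes. By limma with Benjamini-Hochberg adjustment over 93575 bins, H3K9me3 was lower than panH3 in 11 of the 15 bins, where 24.7% of all bins were, and higher in 1, where 15.2% were. The median log2 difference was -1.05 over the 15 bins and -0.10 over all bins tested. Within 20 kb of any gene with RNA of at least 10 RPKM, 70.4% of 13533 bins were lower and 4.87% higher. The shares near the core genes were thus close to those near well expressed genes. Leaving out either panH3 library left 1 in that group, and fewer of the 15 bins were called lower. The share of all bins called was not taken for such fits, so this loss of calls is no result about these bins.

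The bin inside Pou5f1 had H3K9me3 of 0.11, 0.07 and 0.07 RPKM in libraries a, b and c, against panH3 of 0.35 and 0.33 RPKM. The groups did not overlap, with a log2 difference of -1.27 ± 0.26 (SE, adjusted p = 2.90e-04 by limma). The bin 18016 bp downstream of its start, in Cchcr1, had 0.09, 0.07 and 0.04 RPKM against 0.33 RPKM in both panH3 libraries (-1.38 ± 0.26). The bins of Sox2 at 16072 and 22072 bp downstream, those with H3K27me3, averaged H3K9me3 of 0.117 ± 0.012 and 0.12 ± 0.07 RPKM (SD, n = 3), against panH3 of 0.46 ± 0.057 and 0.475 ± 0.035 RPKM (SD, n = 2). Both were called lower (-1.37 and -1.43 log2 units). The upstream bin of Sox2 was not, at 0.28 ± 0.026 against 0.435 ± 0.092 RPKM (limma adjusted p = 0.111).

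Nanog had both the bin highest in H3K9me3 and the bin furthest below panH3, 1 on each side of the gene. The bin on chromosome 6 from 122654001 to 122656000, 2584 bp upstream of the start and outside any annotated gene, had H3K9me3 of 1.37, 1.06 and 1.27 RPKM, against panH3 of 0.88 and 0.71 RPKM. It was the only bin called higher, by 0.57 ± 0.17 log2 units (SE, limma adjusted p = 0.00686, and 6.86e-04 to 0.14 over 11 alternatives). Without panH3 library b the call was lost (0.44 log2 units, adjusted p = 0.14). The bin from 122666001 to 122668000, 9416 bp downstream of the start, had 0.06, 0.21 and 0.09 RPKM, against 0.76 and 0.89 RPKM, the largest difference of the 15 (-2.13 ± 0.28, adjusted p = 1.09e-06).

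The 2 bins upstream of Sall4 had H3K9me3 of 0.0933 ± 0.035 and 0.107 ± 0.075 RPKM (SD, n = 3), against panH3 of 0.41 ± 0.11 and 0.4 ± 0.18 RPKM (SD, n = 2). Both were called lower by limma, the farther one not without panH3 library b (adjusted p = 0.102, range over alternatives 5.47e-06 to 0.102). Of 3 bins upstream of Zfp42, the nearest (4636 bp) had 0.11, 0.21 and 0.20 RPKM against 0.40 and 0.42 RPKM. The farthest had 0.17, 0.54 and 0.18 RPKM, against 0.59 and 0.72 RPKM, with library b well above a and c. Both were called lower by limma, and neither when panH3 library b was left out (adjusted p = 0.0867 and 0.0828). The nearest was also not called without panH3 library a (adjusted p = 0.0655). The middle bin, at 0.54, 0.64 and 0.66 RPKM against 0.63 and 0.69 RPKM, was not called, and its difference of -0.09 log2 units became 0.08 when libraries were centred on their medians.

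The bin shared by Dppa2 and Dppa4, which lies between the 2 genes, had H3K9me3 of 0.26, 0.21 and 0.17 RPKM, against panH3 of 0.45 and 0.47 RPKM (-0.85 ± 0.25 log2 units, limma adjusted p = 0.00746, but 0.0787 without panH3 library a and 0.102 without b). The bin of Dppa5a had 0.20, 0.17 and 0.18 RPKM against 0.46 RPKM in both panH3 libraries. It was called lower in all 11 alternatives. The bin of Utf1 had 0.20, 0.47 and 0.24 RPKM against 0.42 and 0.47 RPKM, with library b at the level of panH3, and was not called (adjusted p = 0.146, but 0.0286 without H3K9me3 library b).

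**Figure D4:**
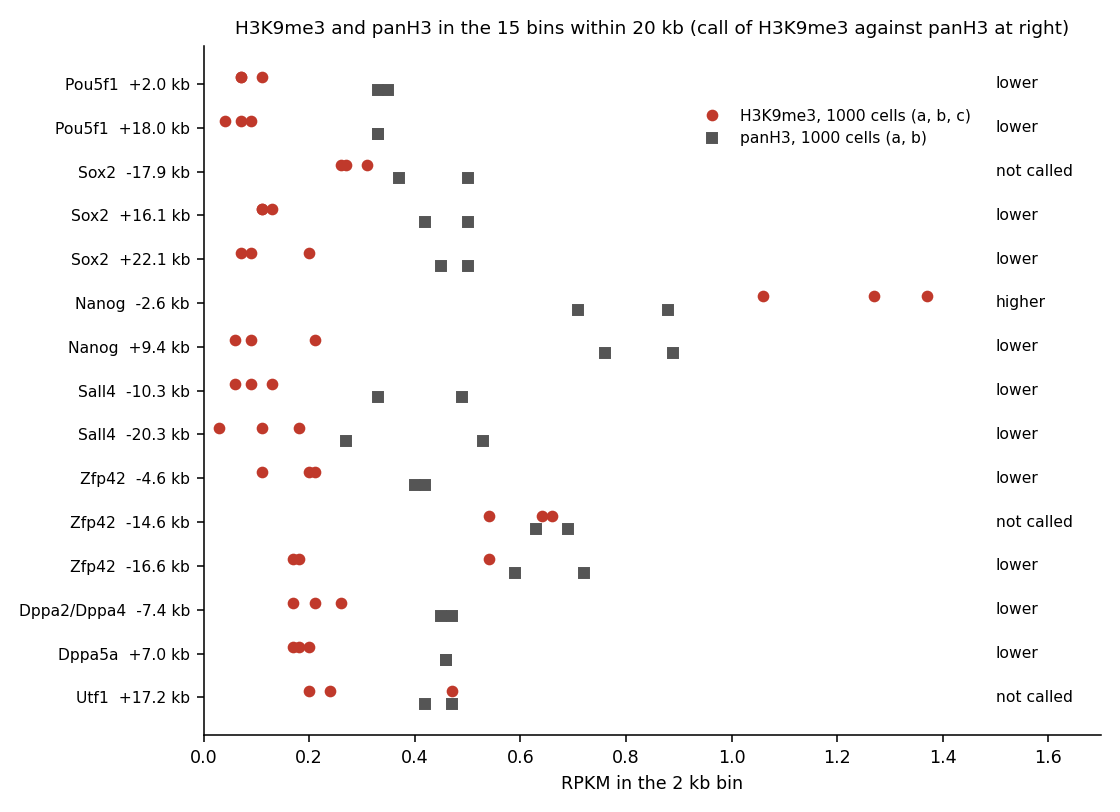
H3K9me3 (circles, 3 libraries) and panH3 (squares, 2 libraries) of 1000 cells, in RPKM, in each of the 15 bins within 20 kb of a core gene, labelled with the distance of its centre from the start (negative is upstream) and the limma call. H3K9me3 lies left of panH3 in most bins, and to the right only in the upstream bin of Nanog.

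The low median of H3K9me3 around the core genes was not seen in the library of 1000000 cells, though single bins stayed below the median of all bins. The median of the 15 bins was 0.17, 0.21 and 0.18 RPKM in the 3 libraries of 1000 cells, 0.15 at 10000, 0.3 at 100000 and 0.37 RPKM at 1000000 cells, while that of all bins stayed at 0.34 to 0.36 RPKM. At 1000000 cells 13 of the 15 bins were above all 3 libraries of 1000 cells, where 26.9% of all bins were, and 0 were below all 3, where 24.4% were. Near genes with RNA of at least 10 RPKM 60.4% of bins were above all 3 and 8.36% below all 3. The downstream bin of Nanog had 0.06, 0.21 and 0.09 RPKM at 1000 cells, then 0.11, 0.25 and 0.37 RPKM at 10000, 100000 and 1000000 cells. The bin inside Pou5f1 had 0.07, 0.10 and 0.20 RPKM in the larger samples. The exceptions were the bin of Utf1 (0.38 RPKM at 1000000 cells) and the upstream bin of Nanog. That bin of Nanog was high throughout, with 1.87, 1.78 and 1.26 RPKM at 10000, 100000 and 1000000 cells, at the 96.2nd to 99.6th percentile of bins over all 6 libraries. Its panH3 in 1000 cells was high too, at the 99.2nd and 95.3rd percentile in libraries a and b. The larger cell numbers have no panH3 to set beside the mark. A single library at each of the larger cell numbers allows no test.

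Nanog and Zfp42 lie in stretches where panH3 itself was higher. In bins within 2.5 Mb of Nanog the median panH3 was 1.59 times the autosome median in both libraries, and within 2.5 Mb of Zfp42 it was 1.34 and 1.41 times. Around the other 7 genes it was 0.886 to 1 times. On chromosome 6 the ratio was 1.48 and 1.5 from 120 Mb to the end, which takes in Nanog, and 0.955 and 0.909 from 100 to 118 Mb, limits set after the values were seen. Over the whole of chromosome 8, which holds Zfp42, it was 1.39 and 1.36. The marks were higher there too. The 6 H3K9me3 libraries had ratios of 1.32 to 1.59 around Nanog and 1.38 to 1.54 around Zfp42, and the 3 H3K27me3 libraries 1.18 to 1.53 and 1.26 to 1.42. DNA copy number was not measured, and its part in the levels of RNA and marks of Nanog and Zfp42 was not tested.

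**Figure D5:**
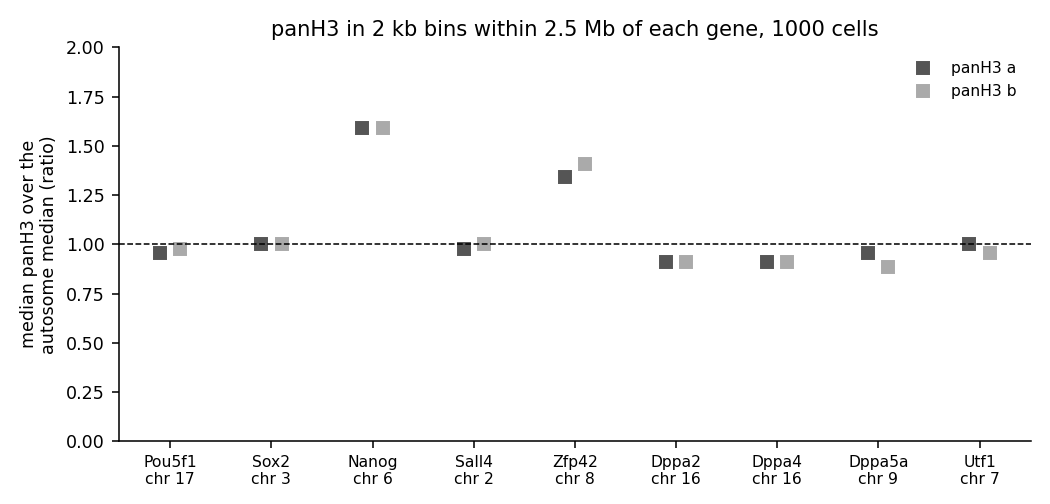
Median panH3 of the 2 kb bins within 2.5 Mb of each gene, divided by the median of all autosomal bins, in libraries a and b of 1000 cells (1 square each), with the ratio of 1 dashed. The stretches around Nanog and Zfp42 lie above the others in both libraries.

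Genes with the most similar profiles were sought for the 3 central factors by the Euclidean distance between percentile ranks over 7 libraries (RNA, 3 of H3K27me3 and 3 of H3K4me3) among 20317 genes. Nearest to Pou5f1 were Hn1l (12.3 percentile points away) and Pcbp2 (12.7), nearest to Sox2 were Adam23 (17.6) and Igfbp2 (18), and nearest to Nanog were Vti1a (11.1) and Elovl5 (12.3). Adam23 and Igfbp2 had RNA of 72.40 and 102.82 RPKM and H3K27me3 of 0.59 and 0.87 RPKM at 100000 cells. They were chosen by these same values, so their nearness to the levels of Sox2 is no separate result. The nearest of the core genes was Dppa4 to Pou5f1 (in place 44), Utf1 to Sox2 (place 13) and Sall4 to Nanog (place 256). The H3K27me3 ranks of Pou5f1 rest on about 4, 1 and 4 reads at 1000, 10000 and 100000 cells. Those of Nanog rest on about 7, 9 and 8, so the nearest genes and these places are not resolved.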

How the data were processed

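Native ChIP-seq and RNA libraries of TT2 cells were sequenced as paired ends, per the labels, and BWA and mm9 are named in the submitters' processing notes. No version, counting tool or read filter is stated in those notes or the labels. The authors deposited RPKM values with 1 column per library, per the file headers; the panH3 columns name no unit and were taken as RPKM because their values step like the others. No bin exceeds 5.00 RPKM, and the highest H3K4me3 window of a library stands at 49.21 to 99.38 RPKM. Gene coordinates are rounded, by up to 16 bp at Sall4 and Utf1. Beside the H3K4me3 values stand 2 columns of another series, left unused.

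The row or window with the highest mean stood for a gene, and for RNA the highest row. In equal windows RPKM are whole multiples of 1 read, which gave depth and counting intervals. H3K9me3 (a, b, c) and panH3 (a, b) at 1000 cells were compared on log2(RPKM + 0.1), which understates changes of low bins, with limma 3.58.1 in R 4.3.3 (robust, intensity trend, two-sided, threshold 0.05, bins above 0 in at least 1 library). All other groups have 1 library and no test. The letters a and b pair no libraries in the labels, and the a minus b deviations of both antibodies correlated at -0.00955, so libraries were not paired. Members and gene lists were chosen with earlier results of these data known. Named genes are the 9 members, the 2 nearest genes to each of 3 factors, and up to 4 of the wider network and lineage lists with the highest RNA and H3K27me3 and the lowest, with cell type markers and, chosen later, genes that a bin within 50 kb of a member overlaps. Alternatives covered pseudocounts, filters, centring, weights, distance and leaving out libraries. Tables and figures were made in Python 3.11.15 (pandas 2.3.3, scipy 1.17.1, numpy 2.4.6, matplotlib 3.10.9).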

Additional observations from a re-analysis of the deposited data

How the results depend on the processing

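Of the 15 bins, 11 were lower and 1 higher in H3K9me3 with a pseudocount of 1 or 0.01, with bins of a mean of at least 0.1 RPKM, with centring, with voom weights, and with the letters a and b as a replicate block without library c (11 lower, 1 higher). Leaving out 1 H3K9me3 library gave 11 or 12 lower and 1 higher. Leaving out a panH3 library, which left 1 in that group, gave fewer lower. The share of all bins called was taken only for the fit given in the Results, so the counts under these alternatives have no background of their own. Within 10 kb, 6 of 7 bins were lower and 1 higher, and within 50 kb 24 of 37 were lower. Centring moved the median of all bins by 0.17 log2 units and turned 1 uncalled bin of Zfp42 to 0.08. For H3K27me3, a pseudocount of 1 RPKM left 0 core genes past 2-fold in either direction (0% higher and 0.0363% lower over all genes), and among the 5 of them that average 0.1 RPKM or more 0 were 2-fold higher (6.15% over all) and 1 lower (4.23%). The counts of core genes for H3K4me3 (7 and 0) and RNA (9) held under each of their alternatives, but the shares of all genes moved. The share 2-fold higher in H3K4me3 was 28.3% with a pseudocount of 1 and 52.1% among genes with a mean of 0.5 RPKM or more. The share 2-fold lower was 1.18% and 6.36% in the same order, and that of all genes at 5 RPKM of RNA was 29.6%. At 5000 and 10000 cells H3K4me3 windows of these genes rest on 2 to 55 reads, and H3K27me3 of most of them on under 10, which limits any order among them.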

Other observations

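Some neighbours of the core genes had more H3K27me3 than the core gene, and others did not. Slc2a3, a glucose transporter next to Nanog, had RNA of 73.68 RPKM and H3K27me3 of 0.27, 0.24 and 0.37 RPKM at 1000, 10000 and 100000 cells. Kndc1, within 50 kb of Utf1, had RNA of 1.42 RPKM and H3K27me3 of 1.04, 1.87 and 1.5 RPKM, above Utf1 itself (0.39, 0.57 and 0.52 RPKM). Ddx43, a germline RNA helicase within 50 kb of Dppa5a, had RNA of 7.24 RPKM and H3K27me3 of 1.58, 2.35 and 2.04 RPKM, while Dppa5a had 0.15, 0.02 and 0.02 RPKM. Sox2ot had RNA of 67.53 RPKM but H3K27me3 of 0.28, 0.09 and 0.27 RPKM at its own start, below the bins in it near Sox2. Of the other genes that a bin within 50 kb of a core gene overlaps, Atp9a near Sall4 had RNA of 3.87 RPKM, Cchcr1 near Pou5f1 4.07 and Gm3143 near Sox2 1.49 RPKM, with H3K27me3 of 0.15, 0.18 and 0.21 RPKM at 100000 cells, where Sall4 had 0.15, Pou5f1 0.09 and Sox2 0.71 RPKM. All these values rest on 1 library each.

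Among genes with RNA of at least 10 RPKM and a promoter entry, those with 4 or fewer CG in the 250 bases before the start (150 genes) had a median H3K27me3 of 0.16 RPKM at 100000 cells, those with 5 to 14 (760 genes) 0.15 RPKM and those with 15 or more (1880 genes) 0.14 RPKM. Their median H3K4me3 was 4.25, 5.36 and 6.93 RPKM in the same order. By the first entry Nanog (3 CG) falls in the first class, Pou5f1 (8), Zfp42 (9) and Utf1 (14) in the second and Sox2 (27) in the third.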
